A study of Mus musculus with 20 samples.

Results

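The small leucine-rich proteoglycans are secreted matrix proteins built from a short protein core of leucine-rich repeats, most of which carry chondroitin, dermatan or keratan sulfate chains. The 8 genes described here are Dcn, Bgn, Aspn, Lum, Fmod, Prelp, Ogn and Podn. They were taken by symbol, with earlier results of these data known, from a table of 25851 genes, and all 8 were found. Heart RNA of 20 male mice aged 14 to 16 weeks was measured, 5 mice in each of 4 groups. The groups were trained mice labelled as a cardiomyocyte PGC-1α knockout (KO_Ex), sedentary mice of that knockout label (KO_Sed), trained wild-type mice (WT_Ex) and sedentary wild-type mice (WT_Sed). Training was 6 weeks with a running wheel that the mice used at will. PGC-1α, encoded by Ppargc1a, is a coactivator of genes of mitochondria and oxidative metabolism, and the title of the series asks about suppression of the stress cytokine GDF15 through it. The driver of the deletion, the deleted exons, the strain and the part of the heart taken are not given in the sources used here.

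Proteins of this family bind the surface of collagen fibrils in the space between cells and set how thick and how regular the fibrils become. Decorin and biglycan also bind TGF-β, and biglycan set free from the matrix is known to engage Toll-like receptors on macrophages. In the heart the proteins are made mainly by fibroblasts, with further sources in valves and in vessel walls, and they are known to increase in scar and in fibrosis.

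Every value below is FPKM, a read level scaled to exon length and library size, as the authors deposited it. FPKM is a level per length, so levels of different genes may be set side by side. Reads recovered from FPKM and exon length came to 14.2 to 30.4 M per library, and the members held at least 230 reads in each library except Fmod, which held 14 to 1134. Differences between groups are on the scale of log2(FPKM + 0.5), with a standard error from limma fitted over all 20 libraries and 13723 genes. A gene was called when its Benjamini-Hochberg adjusted p was below 0.05. A library is 1 mouse, and p-values measure the spread between mice.

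Some properties of the libraries bear on the members. Ppargc1a did not have lower levels under the knockout label. It was at 22.6 ± 3.01 FPKM in KO_Ex and 15.8 ± 4.86 in WT_Ex, and at 22.9 ± 4.41 in KO_Sed and 12.3 ± 2.85 in WT_Sed (SD, n = 5 each). A value summed over all exons is no check of a deletion of some of them, so the knockout is a label throughout. Myl7, the atrial myosin light chain, was above 1000 FPKM in KO_Ex mice 2 and 5 and in WT_Ex mice 4 and 5, and below 100 FPKM in the other 16 libraries. These 4 are called the libraries with atrial transcripts below. Arntl, a clock gene whose level changes with the hour of the day, was above 2 FPKM in 5 libraries, 4 of WT_Sed and 1 of KO_Sed.

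Upstream sequence is given for 3 members that rose in trained labelled knockout hearts and for Ogn, which did not pass the test there. RefSeq windows on GRCm38.p6, from 250 bases before to 50 bases after the start of the gene, were matched by symbol for 6 of the 8 members. Capitals mark matches to 4 motifs on either strand, and matches of one motif may overlap. The TATA box was searched as TATAAA. For the GC box the letters were GGGCGG. The AP-1 element, TGANTCA, had no match in these windows. The SMAD element was searched as CAGAC.
Bgn, chrX:73483351-73483650, plus strand: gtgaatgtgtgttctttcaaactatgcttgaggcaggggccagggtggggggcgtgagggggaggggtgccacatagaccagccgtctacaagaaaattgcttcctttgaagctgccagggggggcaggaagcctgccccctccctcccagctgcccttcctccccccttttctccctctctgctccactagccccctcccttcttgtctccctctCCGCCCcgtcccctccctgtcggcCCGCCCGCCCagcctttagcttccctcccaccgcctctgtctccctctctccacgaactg
Prelp, chr1:133921352-133921651, minus strand: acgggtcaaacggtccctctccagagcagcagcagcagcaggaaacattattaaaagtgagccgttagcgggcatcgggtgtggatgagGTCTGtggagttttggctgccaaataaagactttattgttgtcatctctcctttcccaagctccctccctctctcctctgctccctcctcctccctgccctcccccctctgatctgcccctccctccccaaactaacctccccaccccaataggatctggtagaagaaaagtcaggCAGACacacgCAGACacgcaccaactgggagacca
Aspn, chr13:49544193-49544492, plus strand: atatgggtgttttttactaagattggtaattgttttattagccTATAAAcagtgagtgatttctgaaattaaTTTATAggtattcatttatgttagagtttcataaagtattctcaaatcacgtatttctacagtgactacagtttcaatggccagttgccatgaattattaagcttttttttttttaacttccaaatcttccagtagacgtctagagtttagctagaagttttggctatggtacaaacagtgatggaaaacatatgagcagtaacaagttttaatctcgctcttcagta
Ogn, chr13:49607765-49608064, plus strand: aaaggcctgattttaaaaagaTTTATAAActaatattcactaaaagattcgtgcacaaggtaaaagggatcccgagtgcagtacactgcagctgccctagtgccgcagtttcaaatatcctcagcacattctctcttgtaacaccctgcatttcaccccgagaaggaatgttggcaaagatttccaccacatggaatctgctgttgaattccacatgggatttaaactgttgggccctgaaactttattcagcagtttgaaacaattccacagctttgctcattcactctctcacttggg
The windows differ in what they hold. Bgn had 3 matches to the GC box, Prelp had 3 to the SMAD element, and Aspn and Ogn had 2 to the TATA letters each. In Ogn these overlap in the stretch TTTATAAA, read on either strand. In both genes they lie nearer the upstream end of the window than the start of the gene. Base composition ran from 63.7% G and C in Bgn through 55.3% in Prelp and 42.3% in Ogn to 31.0% in Aspn, against a median of 52.7% over all windows. Of 32851 mouse windows of this length 13.6% held the TATA letters, 35.7% the GC box, 7.81% the AP-1 element and 49.6% the SMAD element. A match is a description of the letters and not a site of binding. Aspn, which rose, and Ogn, which did not pass the test, both held the TATA letters. A link between the letters and the levels was not tested.

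The genes lie in 3 small clusters and at 2 single places (GENCODE M21 on GRCm38). Dcn (ENSMUSG00000019929, chr10:97479609-97518143, plus strand) and Lum (ENSMUSG00000036446, chr10:97565128-97572703, plus strand) are 47.0 kb apart and are followed by the relatives Kera and Epyc. Aspn (ENSMUSG00000021388, chr13:49544443-49567565, plus strand) and Ogn (ENSMUSG00000021390, chr13:49608046-49624501, plus strand) stand in the order Ecm2, Aspn, Omd, Ogn, inside the gene Cenpp on the opposite strand. Prelp (ENSMUSG00000041577, chr1:133910304-133921414, minus strand) and Fmod (ENSMUSG00000041559, chr1:134037254-134048277, plus strand) are 116 kb apart, with Optc beside Prelp. Bgn (ENSMUSG00000031375, chrX:73483602-73495933, plus strand) and Podn (ENSMUSG00000028600, chr4:108014791-108096445, minus strand) have no family neighbour. Prelp shares 350 exon bases with the antisense gene Gm15851 and Aspn shares 7 with Cenpp. The kit keeps the strand, but whether counting used it is not stated, so reads from these shared bases cannot be told apart.

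Decorin, which binds collagen and TGF-β, had the highest mean level of the 8 in KO_Sed, WT_Ex and WT_Sed. Dcn was at 133, 139, 128, 132 and 180.2 FPKM in KO_Ex mice 1 to 5 and at 62.9, 104, 70.3, 100.2 and 114 FPKM in WT_Ex mice. Sedentary hearts had 79.0, 82.1, 96.8, 104 and 89.6 FPKM in KO_Sed and 70.7, 76.3, 81.4, 80.0 and 69.8 FPKM in WT_Sed. All 5 KO_Ex hearts lay above every other heart, and the other 3 groups overlapped.

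Biglycan, the closest relative of decorin, had the widest spread of group means among the 5 members that rose. Bgn was at 130.2, 102, 162, 229 and 131 FPKM in KO_Ex and at 32.9, 44.6, 35.8, 66.5 and 69.7 FPKM in WT_Ex. KO_Sed hearts had 32.9, 50.8, 47.9, 67.7 and 59.7 FPKM and WT_Sed hearts 31.6, 36.5, 23.5, 33.0 and 31.8 FPKM. The lowest KO_Ex heart was above the highest heart of any other group, and KO_Ex mouse 4 was the highest of all 20. Its group mean was 4.82 times higher in KO_Ex than in WT_Sed.

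Asporin, which carries a run of aspartate residues in place of a sugar chain and binds collagen, was a lower-level member. Aspn was at 24.5, 11.8, 20.9, 25.9 and 14.7 FPKM in KO_Ex and at 10.1, 12.0, 8.84, 7.54 and 6.48 FPKM in WT_Ex. The sedentary values were 9.13, 9.76, 8.87, 11.0 and 9.48 FPKM in KO_Sed and 9.71, 9.15, 7.66, 7.39 and 9.64 FPKM in WT_Sed. KO_Ex mice 1, 3 and 4 were higher than all 17 other hearts, while KO_Ex mouse 2 was just below the highest WT_Ex heart.

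Lumican, a keratan sulfate proteoglycan that keeps fibrils thin, was closely grouped in WT_Sed and in 4 of 5 KO_Ex hearts. Lum was at 51.7, 50.9, 52.6, 49.3 and 62.6 FPKM in KO_Ex and at 17.1, 26.3, 20.6, 26.9 and 33.0 FPKM in WT_Ex. KO_Sed hearts had 21.2, 26.0, 27.1, 32.6 and 26.5 FPKM and WT_Sed hearts 19.7, 23.1, 19.7, 19.6 and 20.4 FPKM. No KO_Ex heart overlapped any heart of the other groups. KO_Sed and WT_Sed overlapped through KO_Sed mouse 1 alone.

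Prelp, which is known to anchor basement membranes to the tissue beneath, had 27.5, 39.6, 33.6, 45.4 and 54.6 FPKM in KO_Ex and 14.7, 16.4, 16.3, 23.6 and 19.4 FPKM in WT_Ex. The values were 12.8, 16.0, 19.1, 22.0 and 16.9 FPKM in KO_Sed and 14.3, 16.8, 13.6, 18.1 and 12.7 FPKM in WT_Sed. KO_Ex again lay above all other hearts, with a spread of about 2-fold within the group, and the other 3 groups overlapped.

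Osteoglycin, encoded by Ogn and also named mimecan, was the flattest member. Ogn was at 56.1, 45.3, 46.5, 36.5 and 56.2 FPKM in KO_Ex and at 37.3, 45.8, 37.7, 36.4 and 40.4 FPKM in WT_Ex. Sedentary hearts had 51.0, 41.4, 45.6, 42.9 and 38.8 FPKM in KO_Sed and 45.8, 42.6, 55.8, 41.0 and 36.6 FPKM in WT_Sed. All 4 groups overlapped, and over 20 hearts the highest value was 1.55 times the lowest, against 2.87 to 83.3 times for the other members.

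Fibromodulin, a relative of lumican that binds the same site on collagen, had the lowest mean of the 8 in every group. Fmod was at 1.69, 8.74, 2.17, 3.83 and 17.6 FPKM in KO_Ex and at 0.211, 2.89, 0.417, 8.54 and 4.78 FPKM in WT_Ex. The values were 1.07, 1.70, 2.50, 3.47 and 1.87 FPKM in KO_Sed and 0.770, 1.83, 1.08, 0.860 and 0.640 FPKM in WT_Sed. The 4 highest hearts were the 4 libraries with atrial transcripts.

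Podocan, known in mice to restrain growth of arterial smooth muscle, followed the same 4 libraries. Podn was at 11.0, 23.7, 10.5, 11.4 and 26.0 FPKM in KO_Ex and at 4.68, 8.76, 4.62, 38.4 and 62.1 FPKM in WT_Ex. KO_Sed hearts had 6.73, 9.70, 13.9, 15.6 and 15.5 FPKM and WT_Sed hearts 4.01, 4.24, 3.98, 5.97 and 9.32 FPKM. KO_Ex mice 2 and 5 and WT_Ex mice 4 and 5 held the 4 highest values, and WT_Ex mouse 5 was the highest of all.

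**Figure D1:**
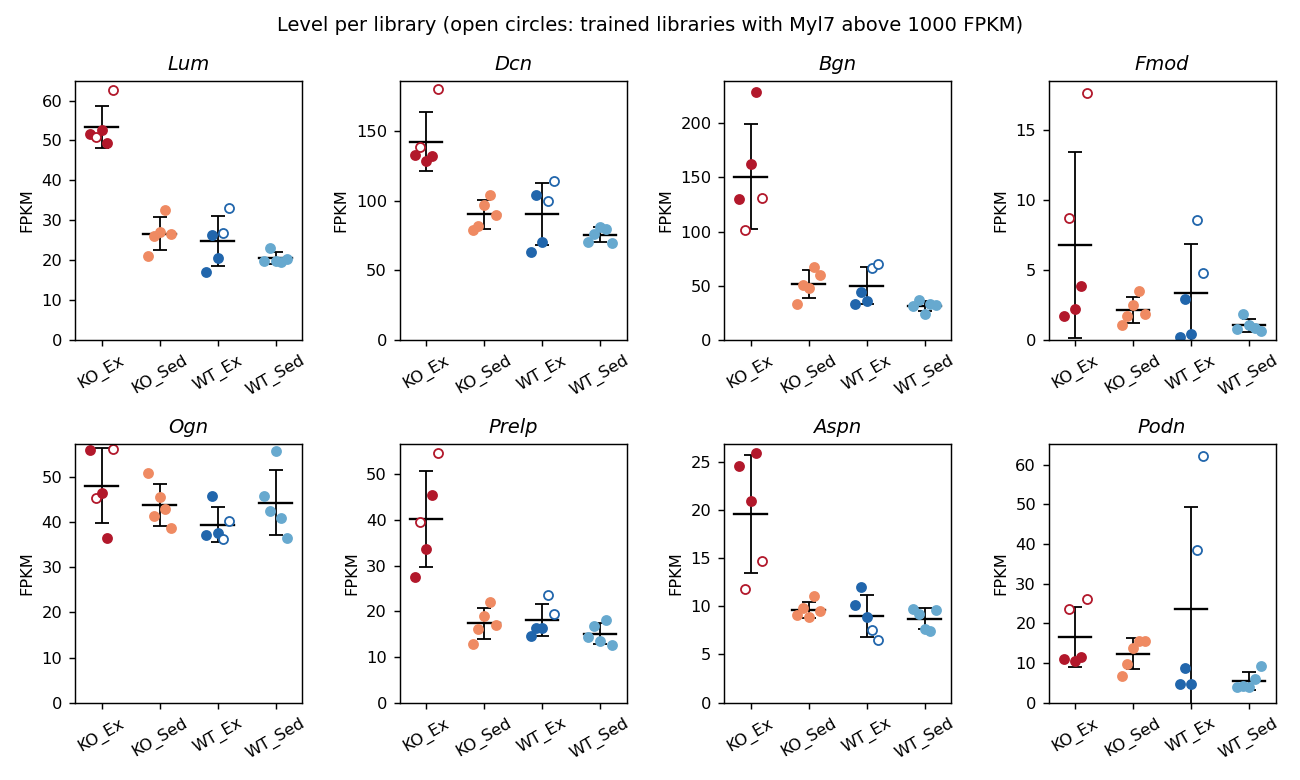
FPKM of the 8 members in each heart (points) by group, with the group mean and SD (n = 5 hearts per group), 1 panel a gene with its own linear axis from 0; open circles are the 4 libraries with atrial transcripts. KO_Ex points stand above all others for Lum, Dcn, Bgn and Prelp, Ogn is level across groups, and Fmod and Podn have wide scatter within the trained groups.

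The order of the levels at the top was different in KO_Ex. Dcn led in KO_Sed, WT_Ex and WT_Sed, and its range did not overlap that of the next gene in KO_Sed and in WT_Sed. In KO_Ex the means of Bgn (151 ± 48.5 FPKM) and Dcn (143 ± 21.3 FPKM, SD, n = 5) did not differ beyond their spread, and Bgn was above Dcn in 2 of 5 hearts. Next in KO_Ex came Lum, Ogn and Prelp, each overlapping its neighbour, then Aspn, Podn and Fmod, again each overlapping its neighbour. Ogn came just below Bgn in KO_Sed and WT_Ex, where the ranges overlapped. In WT_Sed it stood between Dcn and Bgn with no overlap on either side. The sum over the 8 genes was 478 ± 56.5 FPKM in KO_Ex, 254 ± 31.7 in KO_Sed, 259 ± 72.6 in WT_Ex and 202 ± 8.12 in WT_Sed (SD, n = 5 each). Bgn made up 31.3% of that sum in KO_Ex, 20.2% in KO_Sed, 19.1% in WT_Ex and 15.5% in WT_Sed, while the share of Ogn was 10.2%, 17.6%, 16.2% and 21.9% in the same groups.

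The first comparison was between genotype labels after training. Lum, Dcn, Bgn, Prelp and Aspn, 5 of the 8 members, rose in KO_Ex relative to WT_Ex, and none fell. Among all 13723 genes tested 12.5% were called higher in this comparison and 27.9% were called in either direction. The median log2 difference was 1.06 over the 8 members and -0.01 over all genes tested. Bgn had the largest difference, 1.60 ± 0.23 (SE; adjusted p = 3.7e-05, limma). Lum differed by 1.12 ± 0.14 (adjusted p = 4.6e-06), Prelp by 1.11 ± 0.17 (6.3e-05), Aspn by 1.05 ± 0.18 (2.2e-04) and Dcn by 0.68 ± 0.14 (0.00104). In bulk tissue more cells of a type and more RNA per cell cannot be told apart. For Lum, Dcn, Bgn and Prelp all 5 KO_Ex hearts were above all 5 WT_Ex hearts, with an exact two-sided permutation p of 0.00794, the smallest this design allows. Such separation upward was found for 8.07% of genes tested. For Aspn 4 of 5 KO_Ex hearts were above every WT_Ex heart (exact permutation p = 0.0159).

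The other 3 members did not pass the test there. Ogn differed by 0.27 ± 0.12 (adjusted p = 0.104, limma), Fmod by 1.07 ± 0.62 (0.223) and Podn by 0.14 ± 0.56 (0.888). The 95% intervals of these differences were 0.02 to 0.52 for Ogn, -0.23 to 2.36 for Fmod and -1.03 to 1.31 for Podn, so a doubling of Fmod or Podn is within them. Ogn was called when values were rescaled to a common sum per library (TPM), at 0.56 (adjusted p = 0.00121). That scaling also moved the median of all genes to 0.24, and its calls over all genes were 5149 higher and 787 lower, against 1713 higher and 2112 lower with the deposited values. Ogn was called as well without KO_Ex mouse 4, at 0.36 (adjusted p = 0.0244), and with array weights, at 0.31 (0.0357). Fmod was called with log2 Myl7 as a covariate, at 1.03 (adjusted p = 0.0242, limma), and Podn in none of the 35 alternative fits.

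Training within the labelled knockout gave the second comparison, KO_Ex against KO_Sed. It shares the KO_Ex hearts with the first, so the results are not independent. Lum, Dcn, Bgn, Prelp and Aspn rose here too, 5 of 8, where 12.1% of genes tested were called higher and 28.4% in either direction. The median log2 difference was 0.96 over the members and -0.02 over all genes. Bgn differed by 1.52 ± 0.23 (adjusted p = 1.0e-04, limma) and Prelp by 1.17 ± 0.17 (6.3e-05). Lum followed with 1.00 ± 0.14 (3.6e-05), Aspn with 0.93 ± 0.18 (8.5e-04) and Dcn with 0.65 ± 0.14 (0.00170). In all 5 genes every KO_Ex heart was above every KO_Sed heart (exact permutation p = 0.00794 for each), a separation found for 8.96% of genes tested. Ogn (0.12 ± 0.12, adjusted p = 0.499), Podn (0.36 ± 0.56, 0.674) and Fmod (1.09 ± 0.62, 0.205) did not pass. Ogn was called here under TPM scaling, at 0.39, where the median of all genes was 0.21 and calls over all genes were 4085 higher and 631 lower, against 1656 and 2236 with the deposited values.

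The 5 calls of both comparisons were kept in each of 35 alternative fits, 20 of which left out 1 heart. Bgn ranged from 1.43 to 2.16 between genotype labels after training, Lum from 1.00 to 1.41, and Dcn, the smallest of the 5, from 0.56 to 0.97.

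In sedentary hearts no member was called between genotype labels by limma, where 13.3% of genes tested were called in either direction. At an unadjusted p below 0.05 there were 2, Lum and Bgn, and the exact permutation p was below 0.05 for 5. The share of all genes passing these rules was not counted, so the counts cannot be read as particular to the members. Limma voom on recovered reads called 0 members, with 837 genes called higher and 762 lower. Bgn differed by 0.69 ± 0.23 (adjusted p = 0.0567) and was at 51.8 ± 13.1 FPKM in KO_Sed and 31.3 ± 4.78 in WT_Sed (SD, n = 5 each). Lum differed by 0.36 ± 0.14 (adjusted p = 0.0855, limma) and was above the highest WT_Sed heart in 4 of 5 KO_Sed hearts. Podn had the largest difference, 1.10 ± 0.56 (adjusted p = 0.196, limma), from 12.3 ± 3.92 FPKM in KO_Sed against 5.50 ± 2.29 in WT_Sed. Fmod differed by 0.75 ± 0.62, Dcn by 0.25 ± 0.14, Prelp by 0.19 ± 0.17, Aspn by 0.14 ± 0.18 and Ogn by -0.01 ± 0.12. When the 4 libraries with atrial transcripts were left out of the fit, Lum (adjusted p = 0.0443), Bgn (0.0216) and Podn (0.00989) were called. These libraries are all from trained mice, so the differences stayed as they were and the estimate of the spread changed. Over all genes 995 were then called higher and 905 lower, against 955 and 867 with all libraries. Leaving out KO_Sed mouse 1 alone gave 2 calls, Lum at 0.44 and Bgn at 0.84, with 1370 genes called higher and 1435 lower. This mouse is the KO_Sed heart with high Arntl (2.50 FPKM), so high Arntl was then found in WT_Sed hearts alone. Lum and Bgn were also called without WT_Ex mouse 1, and Bgn without WT_Ex mouse 5 or KO_Ex mouse 4. The adjusted p (limma) was 0.0401 for Lum and 0.0409 to 0.0463 for Bgn. Calls over all genes in these fits were 941 to 1035 higher and 844 to 962 lower. Of the 5 hearts with high Arntl 4 are WT_Sed and 1 is KO_Sed, so high Arntl and the wild-type label were partly aligned here. With log2 Arntl as a covariate no member was called, and the median over the 8 was 0.13, against 0.31 without it. Bgn was then at 0.41 and Lum at 0.19, and calls over all genes were 272 higher and 322 lower, against 955 and 867. Without the 5 hearts, which leaves 1 WT_Sed heart, the median over the 8 was 0.48, and 10 genes were called higher and 9 lower.

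Training of wild-type mice called no member by limma, where 5.47% of genes tested were called in either direction. At an unadjusted p below 0.05 there were 2, Bgn and Podn, and 1 exact permutation p was below 0.05. The share of all genes passing these rules was not counted here either. Voom called 0 members, with 313 genes called higher and 238 lower. Bgn was at 49.9 ± 17.2 FPKM in WT_Ex and 31.3 ± 4.78 in WT_Sed (SD, n = 5 each), a log2 difference of 0.61 ± 0.23 (adjusted p = 0.111, limma). Podn differed by 1.32 ± 0.56 (adjusted p = 0.143). Without the libraries with atrial transcripts Bgn differed by 0.27 (adjusted p = 0.565) and Podn by 0.13 (0.850). Bgn was at 66.5 and 69.7 FPKM in the 2 WT_Ex hearts with these transcripts and at 32.9 to 44.6 in the other 3. The median over the 8 was 0.06 without these libraries, against 0.24 with them, and calls over all genes were 33 higher and 6 lower, against 403 and 347. With all libraries the other 6 members lay between -0.16 (Ogn) and 0.77 (Fmod). Without WT_Ex mouse 1, Lum at 0.36, Bgn at 0.74 and Podn at 1.69 were called. Calls over all genes also rose in that fit, to 1051 higher and 1260 lower, against 403 and 347. High Arntl was aligned with the sedentary group here, in 4 of 5 WT_Sed hearts and in 0 of 5 WT_Ex hearts. With log2 Arntl as a covariate no member was called, the median over the 8 was 0.11, with Bgn at 0.34 and Podn at 0.38, and calls over all genes were 44 higher and 29 lower. Without the 5 hearts the median over the 8 was 0.41, and 1 gene was called higher and 3 lower.

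**Figure D2:**
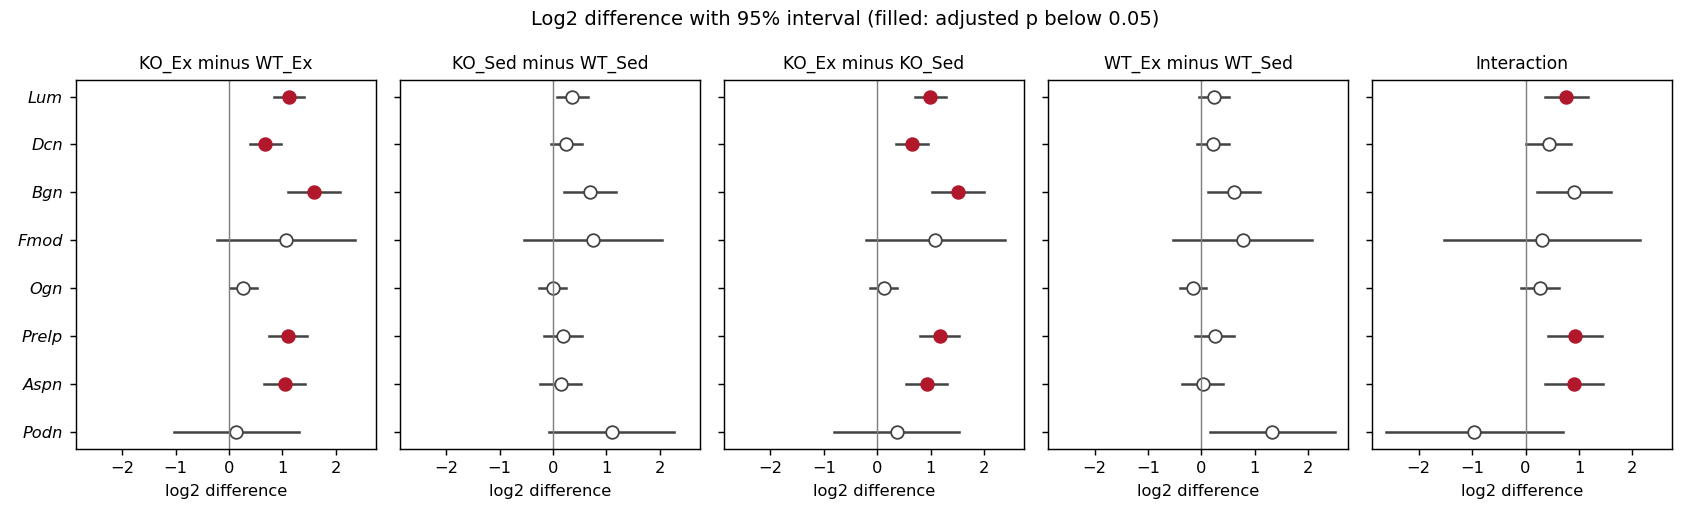
Differences in log2(FPKM + 0.5) of the 8 members in the pairwise comparisons and the interaction, with 95% intervals from limma; filled points passed an adjusted p of 0.05. Lum, Dcn, Bgn, Prelp and Aspn are filled in both comparisons that hold KO_Ex hearts, no member is filled in the sedentary comparison or in wild-type training, and Fmod and Podn have the widest intervals.

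The training change in labelled knockout hearts was then set against that in wild-type hearts, as an interaction term. Lum (0.76 ± 0.19, adjusted p = 0.0254, limma), Prelp (0.92 ± 0.24, 0.0295) and Aspn (0.90 ± 0.26, 0.0410) had a larger change under the knockout label, 3 of 8 where 2.32% of genes tested were called in that direction and 7.32% in either. The difference did not pass for Bgn (0.91 ± 0.33, 0.0980), Dcn (0.43 ± 0.20, 0.177), Ogn (0.27 ± 0.17), Fmod (0.32 ± 0.88) and Podn (-0.96 ± 0.79). The 3 calls are near the threshold. All 3 were lost without WT_Sed mouse 2 and without WT_Ex mouse 3, where 133 and 163 genes were called higher, against 319 with all hearts. Lum was then at 0.72 (adjusted p = 0.0538, limma) and 0.70 (0.0509). Prelp was at 0.88 (adjusted p = 0.0594) and 0.89 (0.0550), and without KO_Ex mouse 4 at 0.87 (0.0595), where it was lost too. Aspn was lost without any 1 of 13 hearts, at 0.79 to 0.95 (adjusted p = 0.0514 to 0.0819). With log2 Arntl as a covariate Lum (0.92, 0.0335) and Prelp (1.04, 0.0490) were called, and Aspn, at 0.90, was not (0.114). Over all genes 83 were then called higher and 184 lower, against 319 and 686 in the main fit. Leaving out the 5 hearts with high Arntl leaves 1 WT_Sed heart whose spread is taken from the other groups. The differences were then 0.68 for Lum, 0.59 for Prelp and 1.03 for Aspn. Without the 4 libraries with atrial transcripts Lum, Prelp and Aspn were called and so was Bgn, at 1.47 (adjusted p = 0.00756). Calls over all genes in that fit were 497 higher and 800 lower.

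Members varied within the trained groups along with the atrial transcripts. Podn was at 23.7 and 26.0 FPKM in the 2 KO_Ex hearts with them and at 10.5 to 11.4 in the other 3, and at 38.4 and 62.1 FPKM in the 2 WT_Ex hearts with them and at 4.62 to 8.76 in the other 3. Fmod was at 8.74 and 17.6 FPKM in those KO_Ex hearts, against 1.69 to 3.83 in the other KO_Ex hearts, and at 8.54 and 4.78 FPKM in those WT_Ex hearts, against 0.211 to 2.89 in the other WT_Ex hearts. Aspn ran the other way, at 11.8 and 14.7 FPKM against 20.9 to 25.9 in KO_Ex, and at 7.54 and 6.48 against 8.84 to 12.0 in WT_Ex. Adipocyte markers also summed to as much as 523 FPKM in KO_Ex and 519 in WT_Ex, against at most 4.61 in KO_Sed and 6.47 in WT_Sed. The part of atrial and fat cells in the levels was not tested. Without the 4 libraries the difference between KO_Ex and WT_Ex was 0.87 for Podn (adjusted p = 0.0659, limma) and 1.17 for Fmod (0.0848), and Bgn reached 2.16 (8.4e-06).

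**Figure D3:**
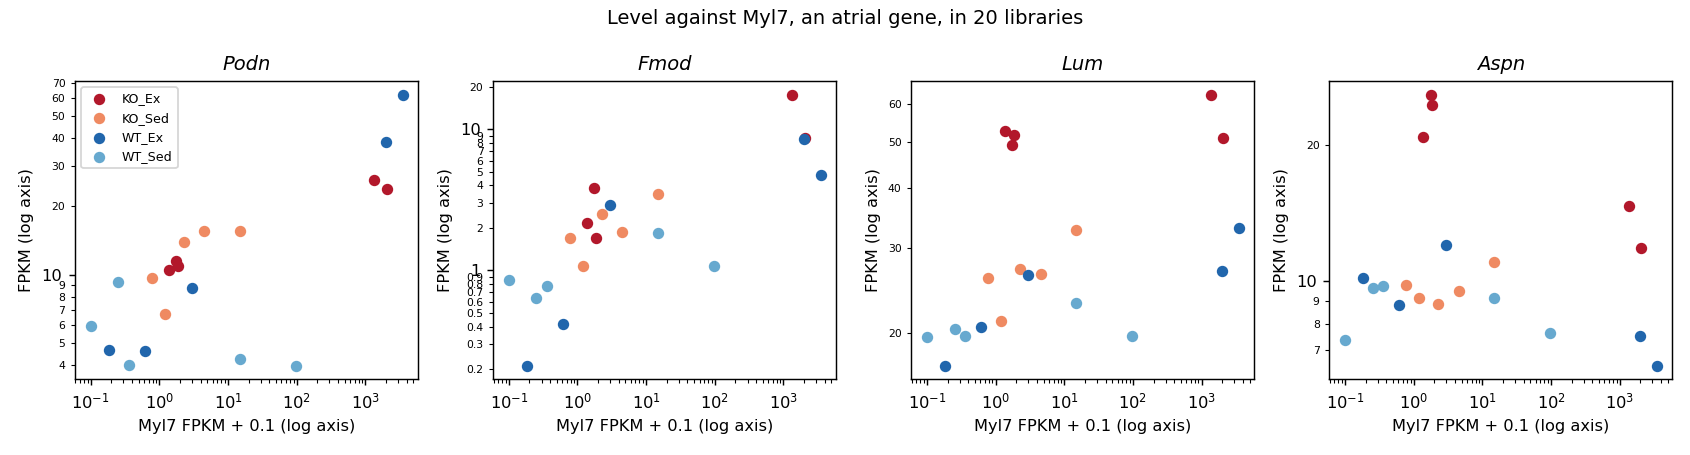
FPKM of Podn, Fmod, Lum and Aspn (log axis) against FPKM of the atrial gene Myl7 plus 0.1 (log axis) in 20 hearts, coloured by group. The 4 hearts at the right, 2 of KO_Ex and 2 of WT_Ex, have the highest Podn and Fmod, while Lum separates KO_Ex from the other groups on both sides of the gap.

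The balance of the sister proteoglycans biglycan and decorin differed as well, a ratio chosen after the data were seen. Bgn per Dcn was 0.978, 0.734, 1.26, 1.73 and 0.726 in KO_Ex hearts and 0.524, 0.427, 0.509, 0.664 and 0.611 in WT_Ex hearts. It averaged 0.570 ± 0.109 in KO_Sed and 0.417 ± 0.0755 in WT_Sed (SD, n = 5 each). Each KO_Ex heart was above every heart of the other groups. The log2 ratio was 0.92 higher in KO_Ex than in WT_Ex and 0.87 higher than in KO_Sed (exact permutation p = 0.00794 for each). It was 0.45 higher in KO_Sed than in WT_Sed (exact p = 0.0476) and 0.40 higher in WT_Ex than in WT_Sed (exact p = 0.0397). Each of these last differences missed 0.05 when any of several single hearts was left out, such as WT_Sed mouse 3, which gave 0.32 (exact p = 0.0952) and 0.27 (exact p = 0.0794). Without the 4 libraries with atrial transcripts the log2 ratio was 1.41 higher in KO_Ex than in WT_Ex (exact p = 0.1, the smallest that 3 hearts against 3 allow). In WT_Ex it was then 0.24 higher than in WT_Sed (exact p = 0.179).

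**Figure D4:**
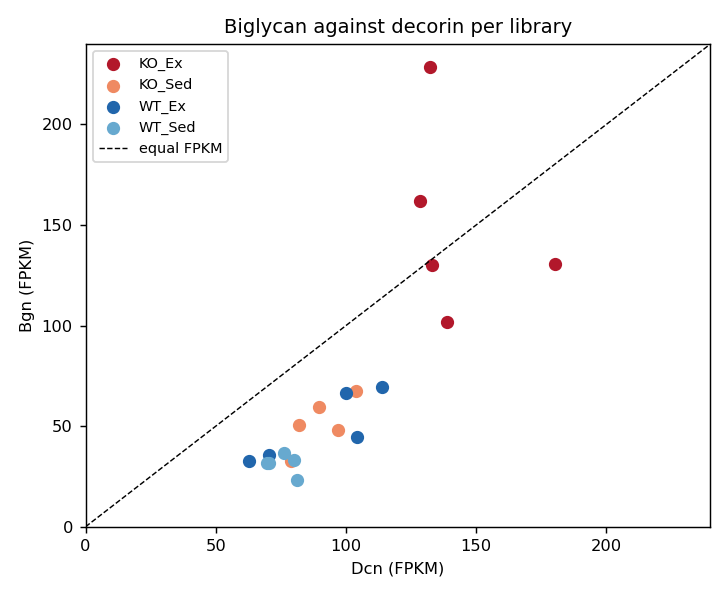
Bgn against Dcn (FPKM, linear axes) in 20 hearts, with a dashed line where the levels are equal. The 5 KO_Ex hearts lie apart at upper right, 2 of them above the line, and the other 15 lie below it.

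Members that shared their ups and downs among mice were compared after subtraction of the group mean, over the 16 hearts without atrial transcripts, since the other 4 stand apart. Of 28 pairs 8 passed an adjusted permutation p on Pearson's r, and 3 also on Spearman's rho. Dcn and Fmod had r = 0.88 (adjusted p = 0.0152) and rho = 0.83 (0.0305, permutation), with r = 0.72 when the 2 hearts farthest in Dcn were left out. Bgn and Prelp had r = 0.82 (0.0217) and rho = 0.76 (0.0384), with r = 0.69 after the same step for Bgn. Fmod and its neighbour on the chromosome Prelp had r = 0.62 (0.0152) and rho = 0.73 (0.0305), with r = 0.69 after the same step for Fmod. The neighbours Dcn and Lum had r = 0.82 (0.0351) with rho = 0.55 (0.189). No pair with Ogn passed on either measure.

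Genes outside the family with the most similar profile over 20 hearts were ranked by Pearson r of the same deviations, as a description. Tgfbi headed the list for Lum (r = 0.92), Itgb4 for Dcn (0.92), Olfml3 for Bgn (0.95), Fbln5 for Prelp (0.86), Fndc1 for Aspn (0.87), 2610008E11Rik for Ogn (0.87), Kazald1 for Fmod (0.95) and Gmppa for Podn (0.97). Tgfbi (0.93), Mgp (0.93) and Smad6 (0.91) were closest to the mean of the 8. The piece of tissue taken and the depth enter such an r, and 10.9% of genes had r above 0.5 with that mean.

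Related proteins of the family outside the 8 were mostly low. Of 10 listed relatives 5 had a mean of at least 0.5 FPKM and were tested, and 2 of these rose in KO_Ex relative to WT_Ex. Tsku, encoding tsukushi, was at 3.04 ± 0.689 FPKM in KO_Ex and 1.35 ± 0.347 in WT_Ex (SD, n = 5 each; log2 difference 0.93 ± 0.14, adjusted p = 3.7e-05, limma). Omd, encoding osteomodulin, was at 1.05 ± 0.374 FPKM in KO_Ex and 0.509 ± 0.251 in WT_Ex (0.63 ± 0.17, 0.00883). In training of labelled knockouts Tsku (0.96 ± 0.14, 4.8e-05) and Ecm2, the neighbour of Aspn (0.46 ± 0.12, 0.00596), rose. Chadl and Chad were not called in either comparison.

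The collagens to which these proteins bind rose in the same comparison. Of 7 tested fibrillar collagen genes 5 rose in KO_Ex relative to WT_Ex and none fell, with a median log2 difference of 1.47. Over all genes 12.5% were called higher and 27.9% in either direction, shares that hold beside each list count of this comparison. Col3a1 differed by 2.02 ± 0.31 (adjusted p = 5.2e-05, limma), Col1a1 by 1.60 ± 0.21 (1.0e-05), Col5a2 by 1.58 ± 0.24 (5.1e-05) and Col1a2 by 1.47 ± 0.18 (5.5e-06). In the 2 KO_Ex hearts with atrial transcripts Col3a1 was at 51.8 and 55.7 FPKM, against 142 to 192 in the other KO_Ex hearts. Col1a1 was at 43.3 and 50.3 FPKM there, against 74.8 to 120. These values were still above the highest WT_Ex hearts, at 38.4 FPKM for Col3a1 and 29.9 for Col1a1. Among 27 genes of collagen processing and fibril assembly 19 rose and 1 fell, with a median of 0.87. Examples are the procollagen protease Adamts2 (1.53 ± 0.20), Col14a1 (1.89 ± 0.24), whose product sits on fibril surfaces, and the crosslinking enzyme Loxl4 (1.06 ± 0.15). The lists, like the members, were chosen with earlier results of these data known.

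The enzymes that build the sugar chains had smaller median differences. Of 19 tested genes of chondroitin and dermatan sulfate synthesis 6 rose and 2 fell in KO_Ex relative to WT_Ex, with a median of 0.12. Dse, the epimerase that turns chondroitin into dermatan sulfate, had the largest value of these, 0.82 ± 0.14 (adjusted p = 1.4e-04, limma), followed by the chain polymerase genes Chpf (0.66 ± 0.14, 0.00138) and Chsy1 (0.43 ± 0.10, 0.00232). B4galt7, which adds a sugar of the linker to the core protein, fell by 0.33 on the log2 scale (0.00395). Of 8 genes of keratan sulfate synthesis and sulfate supply 2 rose, B4galt1 (0.43 ± 0.11) and Papss1 (0.28 ± 0.09), and none fell, with a median of 0.08. A share of 2 in 8 is near the 27.9% of all genes called in either direction. In training of labelled knockouts 9 of 19 genes of the first list rose and 1 fell, with a median of 0.32.

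Partners in signalling and turnover were counted in the same way. Of 22 genes of the TGF-β pathway 11 rose and 1 fell in KO_Ex relative to WT_Ex, with a median of 0.28, among them the ligand Tgfb2 (1.35 ± 0.17, adjusted p = 5.6e-06, limma) and Ltbp2 (2.94 ± 0.40, 1.4e-05), of the latent TGF-β binding protein family. Of 14 receptors and partners of free proteoglycans 10 rose and none fell, with a median of 0.60, including Tlr2 (0.93 ± 0.12), Cd14 (1.19 ± 0.15), Cd44 (0.80 ± 0.10) and the clearance receptor Lrp1 (1.02 ± 0.13). Of 11 proteases and protease inhibitors 5 rose and 1 fell, with a median of 0.38. The protease Mmp2 (1.08 ± 0.13) rose together with the inhibitors Timp1 (2.95 ± 0.36) and Timp2 (0.89 ± 0.14), while the inhibitor Timp4 fell by 1.11 on the log2 scale (adjusted p = 0.00490, limma). Of 16 other proteoglycans 8 rose and none fell, with a median of 0.38, led in size by lubricin, Prg4 (2.33 ± 0.23), and versican, Vcan (1.34 ± 0.19).

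In training of labelled knockouts 5 of 7 fibrillar collagens and 22 of 27 processing genes rose, as did 13 of 22 genes of the TGF-β pathway and 9 of 14 receptors, where 12.1% of all genes tested did. Training of wild-type mice raised 4 of 22 genes of the TGF-β pathway and 1 of 27 processing genes, with median differences of 0.41 and 0.22. These are 18.2% and 3.70% of the lists, against 2.94% of all genes tested that were called higher, so the share of the processing genes is near that of all genes. Over all genes those called higher in wild-type training fell from 403 to 33 without the libraries with atrial transcripts. With log2 Arntl as a covariate they fell to 44. The part of these library differences in the list counts was not tested. Between sedentary groups 3 of the 27 processing genes rose, Pcolce2 (0.78 ± 0.14), which enhances procollagen cleavage, and the collagen-modifying genes Plod3 (0.43 ± 0.13) and Plod1 (0.40 ± 0.13). They are 11.1% of the list, where 6.96% of all genes tested were called higher and 13.3% in either direction, so this count too is near that over all genes.

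**Figure D5:**
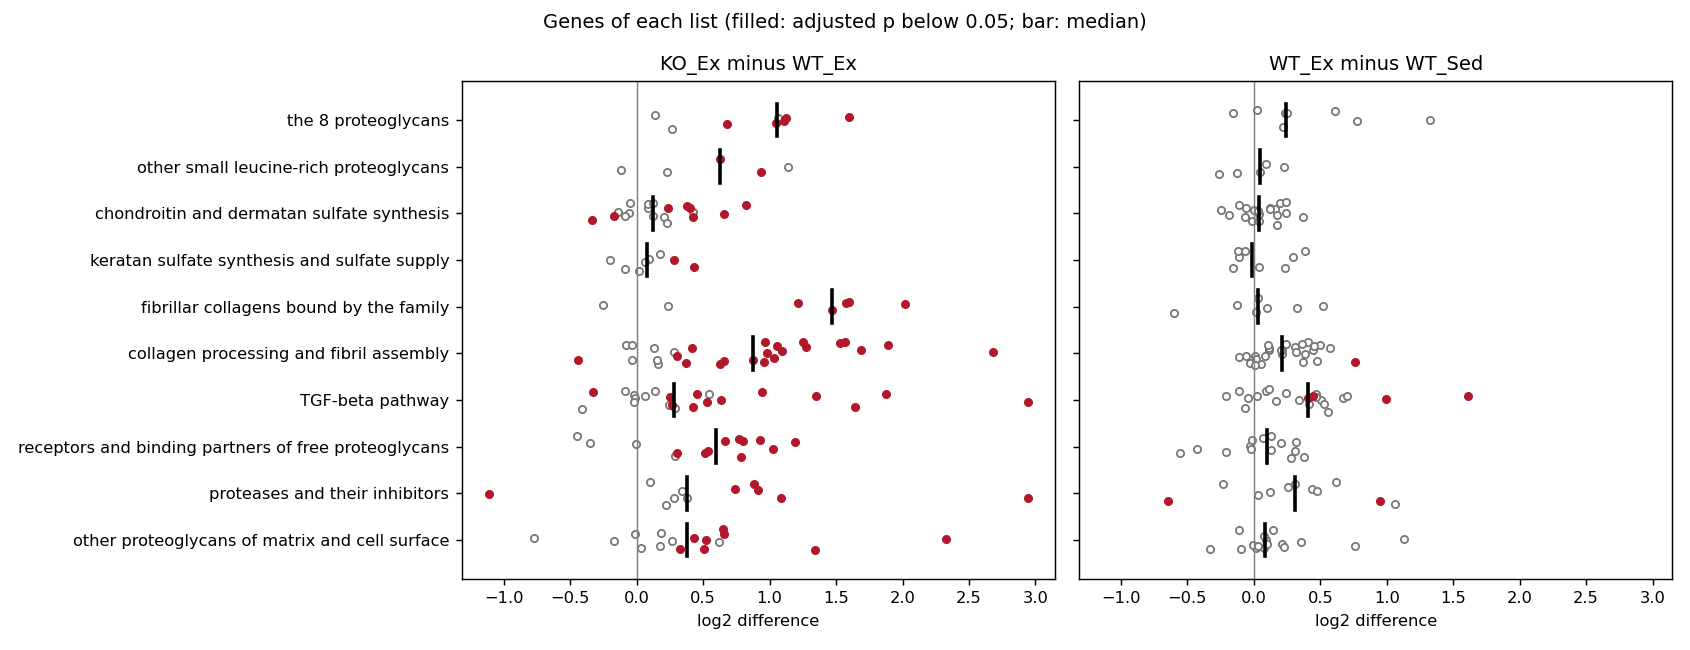
Log2 difference of each tested gene (points) of the 8 members and of 9 lists, in KO_Ex minus WT_Ex at left and WT_Ex minus WT_Sed at right; filled points passed an adjusted p of 0.05 and the bar is the median. The proteoglycans and the fibrillar collagens have medians of 1.06 and 1.47 at left, and most points at right are open.

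Markers of cell types moved with these groups. Activated fibroblast markers were higher in KO_Ex than in WT_Ex for 9 of 10. They summed to 515 to 895 FPKM in KO_Ex and 103 to 213 in WT_Ex. Sedentary sums did not overlap either, at 376 to 447 FPKM in KO_Sed and 66.7 to 168 in WT_Sed. There 1 of 10 was called higher, where 6.96% of all genes tested were. Postn, Cilp and Comp of this list averaged 5.51, 6.35 and 3.35 FPKM in KO_Sed, small parts of that sum. Acta2 is in this list and in the smooth muscle list, which summed to 539 to 596 FPKM in KO_Ex and 170 to 291 in WT_Ex. Smooth muscle sums did not overlap in sedentary hearts either, at 415 to 486 FPKM in KO_Sed and 117 to 239 in WT_Sed. The part of Acta2 in the sums of both lists was not tested. General fibroblast markers rose in KO_Ex relative to WT_Ex for 5 of 10, which were 3 collagen genes, Ddr2 (0.52 ± 0.16) and Tcf21 (0.45 ± 0.15). Of the same list Vtn, which is in the pericyte list too, fell by 0.67 on the log2 scale. Sums of the general fibroblast list were 871 to 1308 FPKM in KO_Ex and 559 to 986 in WT_Ex, which overlap. The 3 collagen genes are also among the fibrillar collagens above. Of the activated fibroblast markers Postn and Fn1 are also collagen processing genes, and Ltbp2 is in the TGF-β list. Counts of lists that share genes are not independent. Macrophage markers rose for 10 of 10, with sums of 389 to 699 FPKM in KO_Ex and 185 to 334 in WT_Ex. Between sedentary groups 5 of 10 were already called higher, where 6.96% of all genes tested were. Their sums there were 289 to 331 FPKM in KO_Sed and 176 to 259 in WT_Sed. Cardiomyocyte markers fell for 7 of 10, with sums of 14792 to 17132 FPKM in KO_Ex and 18318 to 23801 in WT_Ex. Endothelial markers fell for 5 of 10 in KO_Ex relative to WT_Ex. Valve and tendon markers rose for 4 of 6 tested, with Thbs4 at 3.21 ± 0.30 and Scx at 1.46 ± 0.27. Thbs4 was also at 8.73 ± 4.21 FPKM in KO_Sed against 1.65 ± 0.738 in WT_Sed (SD, n = 5 each). Scx in KO_Ex was at 7.37 and 7.75 FPKM in the hearts with atrial transcripts, against 10.9 to 17.1 in the others. Comp is in this list and in the activated fibroblast list. Of the remaining lists 1 atrial cardiomyocyte marker of 8 and 1 Schwann and neural marker of 6 rose in KO_Ex relative to WT_Ex. Smooth muscle had 1 risen and 1 fallen of 7, epicardium and mesothelium 1 and 1 of 7, and pericytes 1 and 3 of 8. No adipocyte marker of 7 and no erythroid marker of 5 was called by limma, or had an unadjusted p below 0.05 (0 in each list). No marker of the fibroblast, macrophage or cardiomyocyte lists was at 0 throughout a group. The part of these cells in the levels of the 8 members was not tested.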

How the data were processed

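RNA of 20 mouse hearts was made into poly-A selected, strand-keeping libraries, per the labels' protocols, all with 1 batch label. The authors deposited FPKM for 25851 genes. HISAT2 2.0.5, featureCounts 1.5.0-p3, DESeq2 1.20.0 and mm10 are named without roles, per the submitters' processing notes. FPKM times GENCODE M21 exon length gave whole reads, within 0.01 reads, in every library for 24957 genes (96.5%). Effective library sizes (14.1 to 31.8 M) matched size factors by the median-ratio method, so no further scaling was applied. Genes with a mean of at least 0.5 FPKM (13723, with 12128 left out) were fitted as log2(FPKM + 0.5) with limma 3.58.1 in R 4.3.3, in 1 fit over 4 groups (16 residual degrees of freedom, trended eBayes, two-sided, Benjamini-Hochberg within each of 5 comparisons). A fold change on this scale understates that of low genes. Members were also tested by exact permutation. The procedure was tested on simulated data. Tables were made with Python 3.11.15, pandas 2.3.3 and scipy 1.17.1.

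The members and the 9 pathway and 13 marker lists were chosen with earlier results of these data known. All members were named. From each list up to 4 called genes in order of p could be named, relatives without limit, and for likeness the top 3 genes per member and the top 10 for their mean. Outside that rule Tcf21, Ddr2 and Timp4 were named after their values were seen. Alternatives were pseudocounts of 0.1 and 1, no filter, a mean of at least 2 FPKM, median-ratio and TPM scaling, groups fitted alone, a fit with array weights, a robust fit, a block for the replicate number, each library left out, the 4 libraries with atrial transcripts or the 5 with high Arntl left out, log2 Myl7 or Arntl as a covariate, and limma voom on recovered reads. The ratio of Bgn to Dcn was added after seeing the data. The sequences are from RefSeq. Replicate numbers did not pair the samples.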

Additional observations from a re-analysis of the deposited data

Results flagged for a closer look

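Within-group values that stood far from the rest were looked for in 32 sets of 5 hearts, by Dixon's ratio of the gap to the range, which chance gives for about 1 in 20 sets. Lum in KO_Ex was highest in mouse 5, at 62.6 FPKM, against 49.3 to 52.6 in the other 4. Dcn in KO_Ex was highest in the same mouse, at 180.2 FPKM, against 128 to 139 in the other 4. KO_Ex mouse 5 is also 1 of the hearts with atrial transcripts. Without it the difference between KO_Ex and WT_Ex was 1.06 for Lum (adjusted p = 1.9e-05, limma) and 0.59 for Dcn (0.00355). Lum in WT_Sed was highest in mouse 2, at 23.1 FPKM, against 19.6 to 20.4 in the other 4.

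The change with training differed between the genotype labels for 3 members in the test of that difference. It was larger under the knockout label by 0.76 for Lum, 0.92 for Prelp and 0.90 for Aspn on the log2 scale. Each call was lost without certain single hearts, at differences of 0.70 and 0.72 for Lum (adjusted p = 0.0509 and 0.0538, limma), 0.87 to 0.89 for Prelp (0.0550 to 0.0595) and 0.79 to 0.95 for Aspn (0.0514 to 0.0819). The p-values lay just past the threshold and the differences moved little for Lum and Prelp.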

How the results depend on the processing

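Counts of called members were unchanged or within 1.5 times in every alternative for KO_Ex against WT_Ex (5, with 6 under TPM scaling, array weights and the Myl7 covariate, and 5 to 6 with 1 heart left out) and for KO_Ex against KO_Sed (5, with 6 under TPM scaling, and 5 with any 1 heart left out). Between sedentary groups the count of 0 became 3 with array weights, with the groups fitted alone and without the atrial libraries. It became 2 with the replicate block, and 1 with the Myl7 covariate and with a mean of at least 2 FPKM. The count was 0 to 2 with 1 heart left out. Over all genes 2630 were called higher and 2706 lower with array weights, against 955 and 867 in the main fit. Those calls were 1212 and 1255 with the replicate block. They were 995 and 905 without the atrial libraries, and 850 and 795 with the groups fitted alone. In wild-type training the count of 0 became 1 with array weights and 1 with the replicate block. It was 0 to 3 with 1 heart left out. Over all genes the calls there were 1221 higher and 1418 lower with array weights, and 804 and 860 with the replicate block. For the interaction the count of 3 became 1 with no filter (Lum) and 2 with log2 Arntl as a covariate (Aspn was lost). It became 4 with the replicate block, with array weights and without the atrial libraries (Bgn was added in each). The count was 0 to 3 with 1 heart left out. Leaving out the 5 high-Arntl hearts leaves 1 WT_Sed heart, so no count is given for it. Over all genes the interaction calls were 83 higher and 184 lower with the Arntl covariate and 455 and 850 with the replicate block. They were 2380 and 2661 with array weights, and 497 and 800 without the atrial libraries. The cause of these shifts was not tested, beyond the fewer or more genes that a filter tests and the fewer hearts left in. No called direction reversed in any alternative. TPM scaling changed the split of calls over all genes to 1052 higher and 391 lower between sedentary groups (955 and 867 as deposited), 186 and 54 in wild-type training (403 and 347) and 351 and 58 in the interaction (319 and 686).

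The replicate number was also fitted as a block, although just 12 of 30 same-number pairs had a correlation of deviations above 0.1 (range -0.28 to 0.48) and 5 of 20 hearts correlated best with their own number. Under the replicate block 5 members were called in each comparison that holds KO_Ex hearts. Depth limits Fmod most, with as few as 14 reads in a heart.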

Other observations

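Chad, Epyc and Optc, relatives of the family, were highest among trained hearts in the 4 with atrial transcripts. Chad, encoding chondroadherin of cartilage, was at 0.112, 4.80, 0.315, 0.438 and 18.8 FPKM in KO_Ex mice 1 to 5 and 0.178, 0.253, 0.321, 1.46 and 0.632 FPKM in WT_Ex mice. KO_Ex mouse 5 was far above all other hearts, and KO_Ex mouse 2 was next. Sedentary hearts reached 2.07 FPKM in KO_Sed and 1.15 in WT_Sed, so over all hearts Chad did not mark the atrial transcripts in WT_Ex. Epyc, encoding epiphycan, was at 0, 0.891, 0.0172, 0 and 2.51 FPKM in KO_Ex and 0, 0, 0, 0.668 and 0.751 FPKM in WT_Ex. Optc, encoding opticin of the eye, was at 0, 0.543, 0, 0 and 0.658 FPKM in KO_Ex and 0.0582, 0.0826, 0.0699, 0.394 and 0.309 FPKM in WT_Ex. For Epyc and Optc KO_Ex mice 2 and 5 and WT_Ex mice 4 and 5 were the highest of their groups. No sedentary heart was above 0.303 FPKM for Epyc or 0.170 for Optc. Nyx, Kera and Chadl did not follow these 4 hearts. Nyx, encoding nyctalopin of the eye, was at 0.206, 0.0629, 0.0510, 0.0946 and 0.0693 FPKM in KO_Ex and 0.183, 0.246, 0.243, 0.0825 and 0.0512 FPKM in WT_Ex, with its highest values in hearts without atrial transcripts. Kera, encoding keratocan of the cornea, was at 0 in 3 of the 4, and Chadl in WT_Ex was highest in mice 2 and 3. The 3 genes named first were picked after their values had been seen, and no test was made.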
